A study of Mus musculus with 10 samples.

Results

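The extracellular matrix is the meshwork of secreted proteins that surrounds cells, and 42 mouse genes of its collagens, adhesive proteins, proteoglycans, elastic fibre and cross-linking proteins, and enzymes of turnover were followed in 3T3-L1 adipocytes. The genes were taken by name, through every probe set annotated to their current or former symbols, in a list drawn up with earlier results of these data known. They had 89 probe sets of the 34945 that name 1 gene. Of the 42, 40 had such a probe set, and 38 passed the filter on dim genes and were tested among 10916 of 18193 genes. Col8a1, a short-chain collagen, and Timp3, a matrix-bound inhibitor of metalloproteinases, were too dim for the test. Loxl2 was covered only by probe sets that name several genes, and Fbn1 was not analysed here.

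3T3-L1 is a clonal mouse embryo fibroblast line that can be turned into fat-storing cells in culture, so a single line stands for the adipocyte here. The cultures received either the cis-9,trans-11 isomer of conjugated linoleic acid (CLA, c9t11), a linoleic acid isomer with conjugated double bonds, or the control, labelled LA, the usual short name of linoleic acid. RNA was taken at 8 h and at 12 h and read on 10 arrays. At each time LA had 4 arrays, numbered 1 to 4 in the labels as biological replicates, and CLA had 1 array, which bears the number 1. The dose and the differentiation schedule are not given in the sources used here, no group was left without a fatty acid, and CLA was not replicated at either time.

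As background, fibroblasts and preadipocytes secrete a fibrous matrix rich in collagens I, III and V and in fibronectin, and maturing fat cells come to lie in a basement membrane of collagen IV, laminins and nidogens. Collagen VI surrounds adipocytes in fat tissue. Small proteoglycans and matricellular proteins bind the collagen fibrils, lysyl oxidases cross-link them, and metalloproteinases with their inhibitors remodel the network as fat cells enlarge.

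Levels below are quantile-normalised probe set intensities on the log2 scale, raised to a floor of 14.3 (3.84 in log2) because a part of the deposited values was at or below 0. A value at the floor is an upper bound, 11.1% of the tested values lay there, and levels of different genes cannot be set against each other because each gene has its own probe set. Differences are log2 values with the standard error (SE) of the limma fit, and a gene was called at a Benjamini-Hochberg adjusted p under 0.05 over the 10916 genes. The labels call the replicates biological without naming separate cultures, so the p-values measure the spread between these arrays.

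The arrays stood apart by replicate number before any fatty acid was considered. The 4 arrays numbered 1, from both fatty acids and both times, had an upper-quartile deposited intensity of 26.4 to 39.5, against 54.4 to 76.8 on the 6 LA arrays numbered 2 to 4. The beta-actin 3' to 5' ratio, a sign of RNA quality, was 1.45 to 2.60 on 9 arrays and 5.67 on the LA array of replicate 4 at 12 h. The adipocyte marker Adipoq, which encodes adiponectin, lay between 12.68 and 13.14 on every array. Fabp4 was also even, between 12.90 and 13.19. The remaining measured adipocyte markers, Cidec, Lep and Retn, were less even. Cidec, a lipid droplet protein, lay at 12.18 and 12.46 in LA replicate 1, 11.14 and 10.98 in replicate 2, 12.07 and 12.34 in replicate 3, 11.58 and 9.62 in replicate 4, and 12.00 and 12.44 with CLA (8 h, then 12 h). The summed level of the 5 measured white adipocyte markers, most of it from Adipoq and Fabp4, was 27074 to 28266 in LA replicate 1, 20716 to 28414 in LA replicates 2 to 4, and 25190 and 28880 with CLA.

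In the LA arrays alone, Postn (periostin), Lum (lumican), Lox (lysyl oxidase) and Dcn (decorin) were lower in replicate 1 than in replicates 2 to 4. The fitted differences were -3.46, -3.18, -2.84 and -2.42, or folds of 11, at least 9.09, 7.16 and 5.34, where that of Lum is a lower bound because 1 of the 2 LA arrays of replicate 1 was at the floor. Col5a3, a type V collagen chain, and Col18a1, a basement membrane collagen, were higher there by 0.98 and 0.96. Of the 38 tested genes, 17 were lower and 2 higher at an adjusted p under 0.05 in limma, against 23.5% of all tested genes lower and 29.7% higher. The median difference was -0.56 over the matrix genes and 0.18 over all genes tested. It was -0.01 against 0.40 after median centring, where 15 were lower and 7 higher beside 2238 lower and 3820 higher of all 10916 genes. On the deposited scaling it was -0.94 against -0.53, where 24 were lower and none higher beside 4367 lower and 365 higher. Relative to the median of all genes, the matrix genes thus lay at -0.74, -0.41 and -0.41 under the 3 scalings.

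These tests rest on the spread between the arrays of 1 number. With the mean of a number's LA arrays as 1 unit, 1 of the 38 was called, against 8.79% of all genes. That gene was Eln, the elastic fibre protein elastin, at an adjusted p of 0.0169 in limma and near the floor, while Postn had 0.0607. Eln lay higher in replicate 1, at 5.17 at 8 h but at the floor at 12 h. In the main fit its difference was 0.61 and was not called, so none of the 19 calls above remained. Without the LA array of replicate 1 at 8 h, or without that at 12 h, replicate 1 has 1 LA array. Fewer matrix genes and fewer of all genes were then called. The median difference over the matrix genes was -0.40 without the 8 h array and -0.70 without the 12 h array. RNA from bulk cultures was measured, so fewer cells of a type and less RNA per cell cannot be told apart.

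Other markers moved with the replicate numbers. The summed level of the 7 measured preadipocyte and fibroblast markers, of which Cd34 was at the floor on all arrays, was 5973 to 7697 in LA replicate 1 and 6848 to 14570 in LA replicates 2 to 4. The 4 myofibroblast and smooth muscle markers, with Cnn1 at the floor throughout, summed to 283 to 306 against 567 to 3666. The 3 measured markers of cycling cells summed to 233 to 234 against 344 to 1086. Of the markers tested, 4 of 6 fibroblast, 1 of 3 myofibroblast and 3 of 3 cycling genes were lower in replicate 1. The share lower over all genes was 23.5%, and 0 of 5 adipocyte genes were called. After median centring 3 fibroblast genes were lower and 1 higher, and 4 of the 5 adipocyte genes were higher. Of all 10916 genes, 2238 were then lower and 3820 higher. The 5 macrophage markers summed to 209 to 258 against 109 to 364, with Lyz2 and Ptprc at the floor on all arrays. Adgre1 was higher in replicate 1 by 1.94, while Cd68 at 0.54 and Csf1r at -0.24 were not called. The endothelial markers Pecam1, Kdr and Tek were at the floor throughout, while Cdh5, the fourth of that list, was higher in replicate 1 by 0.76. The CLA sums of the 5 last lists were 6024 and 7981 for fibroblast, 277 and 291 for myofibroblast, 242 and 270 for cycling, 294 and 195 for macrophage, and 57.1 and 62.2 for endothelial markers, where LA replicate 1 had 60.5 to 75.8 and the other LA arrays 57.1. The part of these cells, of the dimmer arrays and of RNA quality in the matrix differences was not tested.

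The numbers differed in more ways than the contrast of replicate 1 shows. A limma F test over the 4 LA replicate numbers called 25 of the 38 matrix genes, against 50.1% of all genes tested. Each fit without an LA array of replicate 1 or 2 leaves 1 array of that number, and it called fewer of the matrix genes. Fewer of all genes were called too without replicate 1 at 8 h, replicate 2 at 8 h or replicate 1 at 12 h. Both LA arrays of replicate 2 lay above all other LA arrays for 20 of the 38, against 7.04% of all genes, and below them only for Col15a1, against 8.17%. That count was 12 of 39 tested members after median centring (5.34% of all genes), 20 of 39 on the deposited scaling (14.6%) and 26 of 38 without the LA array of replicate 4 at 12 h (12.4%). The LA arrays of replicate 1 lay below all others for 13 genes, against 22.5%, and above them for 2, against 29.9%. Replicate 3 stood apart for none in either direction, against 4.2% and 2.94%. In replicate 4, 4 genes lay below (10.1% of all genes) and 2 above (11.7%).

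**Figure D1:**
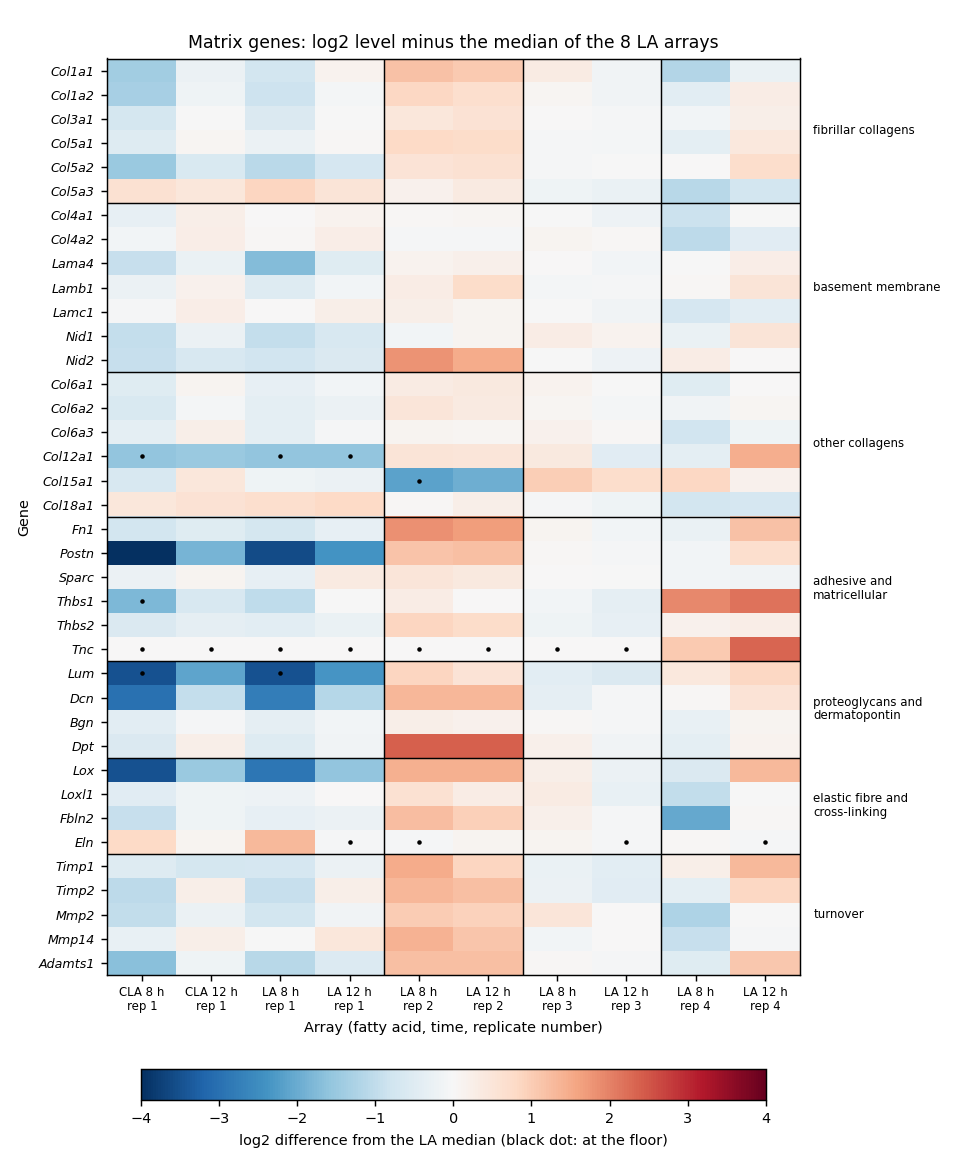
Heat map of the 38 tested matrix genes (vertical axis, grouped by role) over the 10 arrays (horizontal axis, ordered by replicate number), coloured by log2 level minus the median of the 8 LA arrays, with a black dot where a value lies at the floor. The 4 arrays of replicate 1 share their low Postn, Lum, Dcn and Lox, and the LA arrays of replicate 2 lie above all other LA arrays for 20 genes.

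The study's question was how c9t11 CLA changes expression against LA. No matrix gene was called lower or higher with CLA over both times. In the additive fit of fatty acid and time, 0 of 38 passed in limma, as did 0% of the 10916 genes, while 3 of the 38 and 996 of all genes had an unadjusted p under 0.05. Those 3 lay below LA, namely Col5a2 at -1.04 (SE 0.42), Postn at -2.70 (SE 1.10) and Lox at -2.36 (SE 0.98), each with an adjusted p of 0.457. On the upper side Col5a3 lay at 0.58 (SE 0.45) and Col18a1 at 0.51 (SE 0.41). Of the 38, 30 lay below LA and 8 above, with a median of -0.45 against 0.15 over all genes tested. After median centring these medians were -0.15 and 0.23, and on the deposited scaling -0.59 and -0.22.

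Both CLA arrays carry number 1, and blocking on that number brought the median closer to 0. The median became -0.09 and the counts 28 below and 10 above, with 0 of 38 called. Among the 10 is Tnc at 1.6e-15, a rounding residue of no difference. The difference of Postn became -0.11 (SE 0.51), with a 95% interval of -1.27 to 1.06, and those of Lox and Dcn -0.23 and -0.02. Fitted at each time with the block, Postn lay at -1.09 at 8 h and 0.88 at 12 h. Over both times Thbs1 and Col1a1 were farther from 0, at -0.71 (SE 0.40) and -0.52 (SE 0.38). On the upper side Lama4 lay at 0.52 (SE 0.31). Col5a3 and Col18a1 turned to -0.15 and -0.21, and Lum to 0.12. The typical half-width of a 95% interval was 0.98 without the block and 0.65 with it. Intervals within 1 on either side of 0, a 2-fold change, were reached by 9 of the 38 without the block and by 26 with it. For the genes outside these counts a 2-fold difference was not excluded. With the block the difference comes from the arrays of replicate 1 alone. Tnc, among the 26, was at the floor on each of them, so its interval cannot exclude a change.

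For no matrix gene did both CLA arrays lie below all 8 LA arrays, against 1.21% of all genes, and for none did both lie above, against 4.13%. All 4 arrays of replicate 1, CLA and LA together, lay below the 6 other arrays for 9 of the 38, against 17.6% of all genes. These were Col5a2, Col12a1, Fn1, Postn, Lox, Lum, Dcn, Lama4 and Nid2. The same arrays lay above the others for 2, Col5a3 and Col18a1, against 22.5%.

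**Figure D2:**
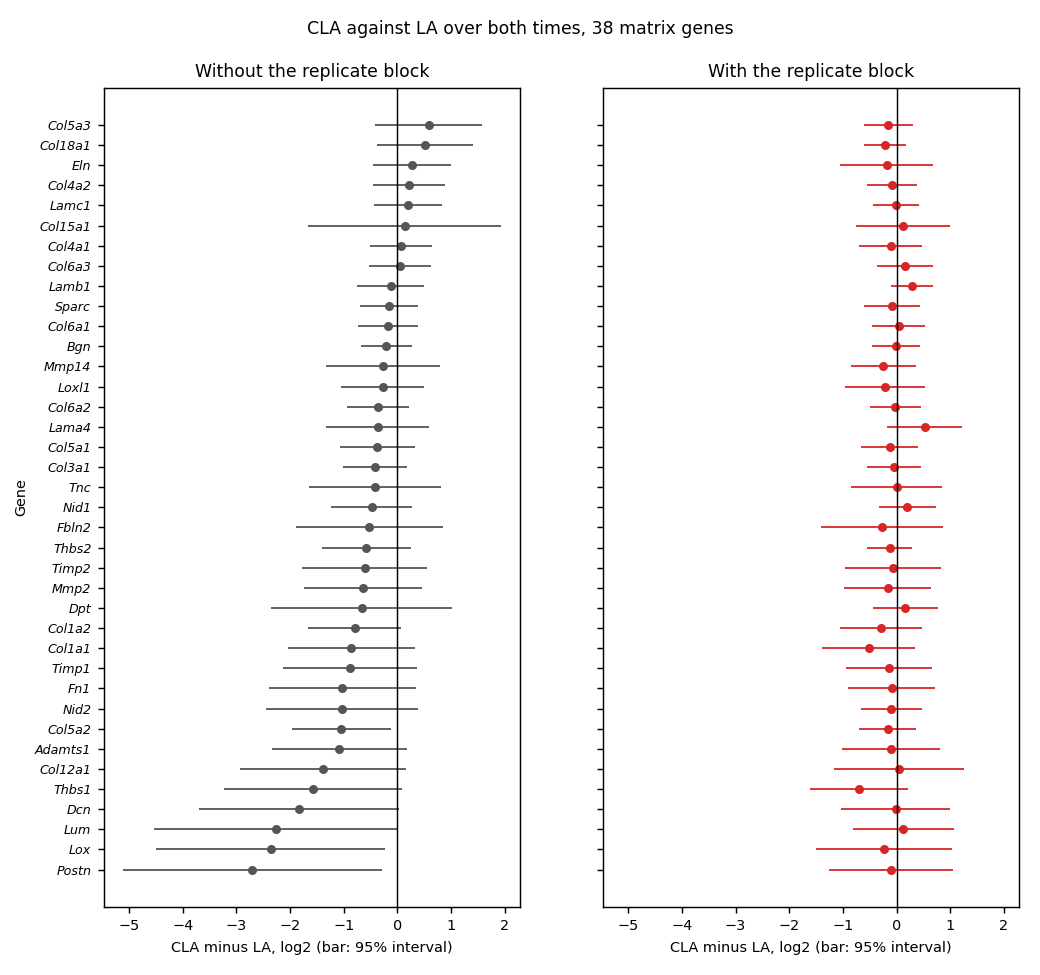
CLA minus LA over both times on the log2 scale (horizontal axis) for the 38 tested matrix genes (vertical axis), with points for the fitted difference and bars for the 95% interval, without the replicate block on the left and with it on the right. Postn lies at -2.70 on the left and at -0.11 on the right, and the median of the genes moves from -0.45 to -0.09.

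The levels follow by role, each written for 8 h first and 12 h second. Of the 6 fibrillar collagen genes, 3 differed between LA replicate numbers by the F test, a share close to the 50.1% of all genes. Col1a1, which encodes the alpha 1 chain of type I collagen, the main fibre protein, lay at 10.26 and 11.16 in LA replicate 1, 12.16 and 12.05 in replicate 2, 11.33 and 10.85 in replicate 3, 9.82 and 10.74 in replicate 4, and 9.60 and 10.78 with CLA. Replicate 2 was above all other LA arrays, and the CLA array at 8 h was below all of them while that at 12 h lay within their range. Its LA levels were 10.89 ± 1.06 (SD, n = 4) at 8 h and 11.20 ± 0.59 (SD, n = 4) at 12 h. Col1a2, the partner chain, lay at 10.69 and 11.88 with CLA and 11.19 and 11.95, 12.85 and 12.71, 12.11 and 11.89, and 11.61 and 12.32 in LA replicates 1 to 4. Its order was like that of Col1a1, with replicate 2 on top and the CLA array at 8 h lowest. Col3a1, the chain of type III collagen, a fine fibre found with type I, lay at 11.82 and 12.36 in LA replicate 1, 12.83 and 12.96 in replicate 2, 12.42 and 12.34 in replicate 3, 12.27 and 12.64 in replicate 4, and 11.70 and 12.38 with CLA. The LA arrays of replicate 2 were again highest, and the range over all 10 arrays was 1.26. CLA minus LA was -0.86 (SE 0.54) for Col1a1, -0.80 (SE 0.39) for Col1a2 and -0.42 (SE 0.27) for Col3a1, none of them called.

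The type V collagen chains, which help to start collagen fibrils and limit their width, did not share one pattern. Col5a2 lay at 9.43 and 9.85 in LA replicate 1, 11.05 and 11.11 in replicate 2, 10.48 and 10.48 in replicate 3, 10.54 and 11.21 in replicate 4, and 9.04 and 9.91 with CLA. All 4 arrays of replicate 1 were below the other 6, and the LA difference of replicate 1 was -1.17 (SE 0.17) at an adjusted p of 0.00276. Col5a3 lay at 9.34 and 9.21 with CLA and 9.60 and 9.26, 8.93 and 9.10, 8.57 and 8.47, and 7.64 and 8.00 in LA replicates 1 to 4. Here replicate 1 was above and replicate 4 below all other LA arrays, and replicate 1 was higher by 0.98 (SE 0.17), adjusted p 0.00444. On the deposited scaling that difference was 0.35 and was not called. Col5a1 ranged from 9.61 to 10.81 over the LA arrays, with replicate 2 above the rest.

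Of the 7 basement membrane genes, 4 were lower in LA replicate 1 and none higher, against 23.5% and 29.7% of all genes. Col4a1 and Col4a2 encode the chains of type IV collagen, the network-forming collagen of basement membranes. Col4a1 lay at 11.96 and 12.10 in LA replicate 1, 12.00 and 12.03 in replicate 2, 11.95 and 11.74 in replicate 3, 11.08 and 11.93 in replicate 4, and 11.64 and 12.19 with CLA. Apart from the LA array of replicate 4 at 8 h, which was low, all arrays fell between 11.64 and 12.19, both of them CLA arrays. Col4a2 lay at 11.66 and 11.87 in LA replicate 1, 11.55 and 11.55 in replicate 2, 11.70 and 11.66 in replicate 3, 10.57 and 11.17 in replicate 4, and 11.49 and 11.87 with CLA. Both LA arrays of replicate 4 were below all other LA arrays, and that at 8 h was lowest as for Col4a1. Neither gene was called in replicate 1, where the differences were 0.24 (SE 0.22) and 0.40 (SE 0.17), nor with CLA, where they were 0.07 (SE 0.26) and 0.21 (SE 0.30).

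Both genes are read from opposite strands, and their start regions are shown because the windows overlap. In the RefSeq annotation of GRCm38.p6, 250 bases before to 50 after the start of Col4a1 is chr8:11312777-11313076 on the minus strand, and that of Col4a2 is chr8:11312555-11312854 on the plus strand. They share 78 bases, chr8:11312777-11312854. Capitals mark matches on either strand to CCAAT (the box bound by NF-Y) and GGGCGG (a GC box bound by Sp1), out of 5 motifs searched.
Col4a1: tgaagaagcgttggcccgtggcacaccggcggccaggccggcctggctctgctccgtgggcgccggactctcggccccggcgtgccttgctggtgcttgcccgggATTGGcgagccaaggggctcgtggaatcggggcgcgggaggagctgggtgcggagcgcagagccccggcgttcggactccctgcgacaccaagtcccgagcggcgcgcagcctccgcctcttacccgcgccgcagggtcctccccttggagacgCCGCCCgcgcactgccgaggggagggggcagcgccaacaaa
Col4a2: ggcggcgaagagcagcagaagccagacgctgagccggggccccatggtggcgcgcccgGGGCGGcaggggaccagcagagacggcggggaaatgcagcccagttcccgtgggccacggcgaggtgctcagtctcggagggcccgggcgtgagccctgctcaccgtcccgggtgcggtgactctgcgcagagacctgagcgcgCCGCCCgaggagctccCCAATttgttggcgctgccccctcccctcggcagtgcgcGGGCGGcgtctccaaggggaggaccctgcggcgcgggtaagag

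Among the laminins, which assemble with collagen IV, Lama4, the alpha 4 chain of adipocyte and vessel basement membranes, lay at 7.27 and 8.53 in LA replicate 1, 9.14 and 9.21 in replicate 2, 9.04 and 8.90 in replicate 3, 8.99 and 9.28 in replicate 4, and 8.09 and 8.76 with CLA. Replicate 1 was below all other LA arrays, the array at 8 h most of all, and the difference was -1.19 (SE 0.27), adjusted p 0.0121. Lamb1, the beta 1 chain, was lower in replicate 1 by a difference of -0.55 (SE 0.14), adjusted p 0.0168, which after median centring was -0.20 and not called. Lamc1, the gamma 1 chain, lay at 8.16 and 8.48 with CLA and 8.23 and 8.43, 8.44 and 8.30, 8.19 and 8.07, and 7.54 and 7.79 in LA replicates 1 to 4. Only replicate 4 stood apart for it, below all other LA arrays. The nidogens link laminin to collagen IV. Nid1 lay at 9.57 and 9.88 in LA replicate 1, 10.42 and 10.62 in replicate 2, 10.81 and 10.67 in replicate 3, 10.27 and 11.02 in replicate 4, and 9.56 and 10.29 with CLA. Its replicate 1 arrays were below all other LA arrays, with a difference of -0.91 (SE 0.19), adjusted p 0.00886. Nid2 lay at 5.24 and 5.53 with CLA and 5.40 and 5.58, 7.98 and 7.67, 6.15 and 5.98, and 6.45 and 6.19 in LA replicates 1 to 4. Replicate 2 was above and replicate 1 below all other LA arrays, and the difference of replicate 1 was -1.25 (SE 0.18), adjusted p 0.00263. With CLA the 7 genes ran from -1.03 for Nid2 to 0.21 for Col4a2, and none was called.

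Collagen VI forms beaded filaments around adipocytes, and its 3 chains varied little. Col6a1 lay at 11.22 and 11.44 in LA replicate 1, 11.88 and 11.94 in replicate 2, 11.69 and 11.53 in replicate 3, 11.06 and 11.58 in replicate 4, and 11.07 and 11.66 with CLA. The LA arrays of replicate 2 were above the others, and both CLA arrays lay within the LA range. Col6a3 lay at 11.65 and 12.27 with CLA and 11.63 and 11.98, 12.14 and 12.10, 12.20 and 12.08, and 11.25 and 11.86 in LA replicates 1 to 4. No replicate number stood apart for it, and the CLA array at 12 h was the highest of the 10. Col6a2 was lower in replicate 1 by a difference of -0.45 (SE 0.15), adjusted p 0.0473, but after median centring the difference was 0.20. CLA minus LA was -0.18 (SE 0.26), -0.36 (SE 0.26) and 0.05 (SE 0.26) for Col6a1, Col6a2 and Col6a3.

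The other collagens of the set pointed in different directions. Col12a1, a collagen that binds to the surface of fibrils, lay at 3.84 and 3.84 in LA replicate 1, 5.92 and 5.90 in replicate 2, 5.80 and 4.94 in replicate 3, 5.01 and 6.85 in replicate 4, and 3.84 and 3.91 with CLA. The LA arrays of replicate 1 and the CLA array at 8 h were at the floor. By this probe set replicate 1 was thus at least 3.74-fold lower, adjusted p 0.0182 in limma. The other tested probe set of Col12a1 lay at 0.30 there and was not called. Col15a1, a basement membrane collagen of the multiplexin type, lay at 5.33 and 6.41 with CLA and 5.78 and 5.73, 3.84 and 4.01, 6.93 and 6.66, and 6.78 and 6.15 in LA replicates 1 to 4. It was the gene for which replicate 2 was below all other LA arrays, with 1 of its arrays at the floor, and the F test gave an adjusted p of 0.00406. Col18a1, the other multiplexin and the source of endostatin, lay at 8.48 and 8.60 in LA replicate 1, 7.84 and 8.03 in replicate 2, 7.76 and 7.64 in replicate 3, 7.06 and 7.14 in replicate 4, and 8.26 and 8.39 with CLA. Replicate 1 was above and replicate 4 below all other LA arrays, and the difference of replicate 1 was 0.96 (SE 0.13), adjusted p 0.00231. On the deposited scaling it was 0.24 and not called. Col8a1 was at the floor on 8 of 10 arrays, with 4.96 on the LA array of replicate 4 at 12 h.

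The start regions of the pair that was high in replicate 1, Col5a3 and Col18a1, are shown from the same RefSeq table, with the same motifs in capitals. That of Col5a3 is chr9:20815018-20815317 and that of Col18a1 chr10:77166481-77166780, both on the minus strand.
Col5a3: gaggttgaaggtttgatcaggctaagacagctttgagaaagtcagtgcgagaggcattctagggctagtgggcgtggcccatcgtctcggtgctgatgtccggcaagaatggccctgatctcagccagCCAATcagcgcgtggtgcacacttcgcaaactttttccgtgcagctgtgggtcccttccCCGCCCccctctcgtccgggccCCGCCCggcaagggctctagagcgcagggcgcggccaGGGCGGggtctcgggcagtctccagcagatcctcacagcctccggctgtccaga
Col18a1: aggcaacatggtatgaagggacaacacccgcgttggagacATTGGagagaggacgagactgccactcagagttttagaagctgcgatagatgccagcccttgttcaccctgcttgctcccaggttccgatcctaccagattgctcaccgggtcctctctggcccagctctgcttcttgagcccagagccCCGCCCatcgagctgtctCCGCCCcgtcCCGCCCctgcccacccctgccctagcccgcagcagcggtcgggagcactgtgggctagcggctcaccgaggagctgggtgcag

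Of the 6 adhesive and matricellular genes, 4 were lower in LA replicate 1, against 23.5% of all genes. Fn1, fibronectin, on which collagen fibrils are laid down, lay at 8.75 and 9.13 in LA replicate 1, 11.28 and 11.13 in replicate 2, 9.58 and 9.34 in replicate 3, 9.20 and 10.65 in replicate 4, and 8.72 and 8.98 with CLA. Replicate 2 was above and replicate 1 below all other LA arrays, and at either time CLA lay slightly below LA replicate 1. The LA difference of replicate 1 was -1.25 (SE 0.33), adjusted p 0.02. Postn, periostin, a matricellular protein that binds collagen I and helps its cross-linking, had the widest range of all 38, 5.53. It lay at 7.0 and 8.18 in LA replicate 1, 11.71 and 11.78 in replicate 2, 10.60 and 10.52 in replicate 3, 10.44 and 11.24 in replicate 4, and 6.25 and 8.71 with CLA. All 4 arrays of replicate 1 were below the other 6, the lowest being the CLA array at 8 h. The LA difference of replicate 1 was -3.46 (SE 0.26), 11-fold, at an adjusted p of 0.000871. Within replicate 1, CLA minus LA was -0.75 at 8 h and 0.54 at 12 h. LA levels were 9.94 ± 2.04 (SD, n = 4) at 8 h and 10.43 ± 1.59 (SD, n = 4) at 12 h.

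The start region of Postn is shown because this gene varied most. It is chr3:54359017-54359316 of GRCm38.p6 on the plus strand, and of the motifs searched it held CCAAT, in capitals, on the minus strand.
Postn: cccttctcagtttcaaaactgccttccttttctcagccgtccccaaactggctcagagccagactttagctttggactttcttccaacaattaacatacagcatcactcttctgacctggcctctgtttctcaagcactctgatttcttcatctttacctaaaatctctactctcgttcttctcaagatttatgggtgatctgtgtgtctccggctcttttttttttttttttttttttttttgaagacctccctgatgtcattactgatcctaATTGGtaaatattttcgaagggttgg

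Sparc, a collagen-binding matricellular protein made by adipocytes and fibroblasts, lay at 11.63 and 11.96 with CLA and 11.53 and 12.23, 12.36 and 12.25, 11.88 and 11.85, and 11.77 and 11.73 in LA replicates 1 to 4. Its range was 0.83, with replicate 2 highest in LA, and its difference in replicate 1 was -0.09 (SE 0.20), not called. The thrombospondins Thbs1 and Thbs2 bind matrix proteins, and Thbs1 can activate latent TGF-beta. Thbs1 lay at 4.62 and 5.63 in LA replicate 1, 5.92 and 5.63 in replicate 2, 5.52 and 5.28 in replicate 3, 7.56 and 7.80 in replicate 4, and 3.84 and 5.0 with CLA. Replicate 4 was well above all other LA arrays, while those of replicates 1 and 3 overlapped. The CLA array at 8 h was at the floor. Thbs2 lay at 7.12 and 7.34 with CLA and 7.27 and 7.45, 8.56 and 8.43, 7.54 and 7.37, and 7.86 and 7.95 in LA replicates 1 to 4. Here replicate 2 was on top and the arrays of replicates 1 and 3 overlapped. In replicate 1 the differences were -1.16 (SE 0.30) for Thbs1 and -0.60 (SE 0.14) for Thbs2, adjusted p 0.0176 and 0.0136. Tnc, tenascin C, a protein of wounds and developing tissue, was at the floor on 8 arrays and lay at 4.88 and 6.17 in LA replicate 4. All CLA arrays were thus at the floor for it.

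Of the 4 genes of the proteoglycan group, 3 were lower in LA replicate 1, against 23.5% of all genes. Lum and Dcn encode lumican and decorin, small leucine-rich proteoglycans that space collagen fibrils. Lum lay at 3.84 and 4.96 in LA replicate 1, 8.17 and 7.86 in replicate 2, 6.88 and 6.74 in replicate 3, 7.74 and 8.12 in replicate 4, and 3.84 and 5.21 with CLA. The 4 arrays of replicate 1 were below the other 6, with the CLA and LA arrays at 8 h both at the floor. Dcn lay at 7.79 and 9.42 in LA replicate 1, 11.86 and 11.87 in replicate 2, 10.18 and 10.50 in replicate 3, 10.61 and 11.11 in replicate 4, and 7.58 and 9.59 with CLA. Replicate 1 was again below and replicate 2 above all other LA arrays, and within replicate 1 the levels at 12 h exceeded those at 8 h under both fatty acids. The LA differences of replicate 1 were -3.18 (SE 0.30), a bound, and -2.42 (SE 0.31), adjusted p 0.00108 and 0.00185. For CLA against LA they were -2.26 (SE 1.03) and -1.83 (SE 0.85), adjusted p 0.457 for both. Bgn, biglycan, a close relative of decorin, lay at 11.68 and 12.06 with CLA and 11.76 and 12.01, 12.35 and 12.28, 12.16 and 12.06, and 11.81 and 12.23 in LA replicates 1 to 4. Its range was 0.66, and it passed neither the F test nor any other comparison. Dpt, dermatopontin, which binds decorin, lay at 8.12 and 8.50 in LA replicate 1, 11.04 and 11.03 in replicate 2, 8.84 and 8.50 in replicate 3, 8.24 and 8.79 in replicate 4, and 8.06 and 8.89 with CLA. Both LA arrays of replicate 2 were well above all others, and no other number stood apart. Its difference in replicate 1 was -1.10 (SE 0.19) and was called, though the arrays of replicates 1 and 4 overlapped. Its F test gave an adjusted p of 0.00346.

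Of the 4 tested cross-linking and elastic fibre genes, 1 was lower in LA replicate 1, a share close to the 23.5% of all genes. Lox, lysyl oxidase, which cross-links collagen and elastin, lay at 7.34 and 8.66 in LA replicate 1, 11.68 and 11.67 in replicate 2, 10.48 and 10.01 in replicate 3, 9.67 and 11.53 in replicate 4, and 6.76 and 8.77 with CLA. Replicate 1, with CLA or LA, was below the other 6 arrays, and replicate 2 was above. The LA difference was -2.84 (SE 0.45), adjusted p 0.00357. Loxl1, a relative that acts on elastin, lay at 9.51 and 9.80 with CLA and 9.77 and 9.99, 10.57 and 10.27, 10.30 and 9.68, and 8.97 and 9.94 in LA replicates 1 to 4. The arrays of the numbers overlapped, and the difference in replicate 1 was -0.07 (SE 0.30). Fbln2, fibulin 2, a protein of elastic fibres and basement membranes, ranged from 7.66 in LA replicate 4 at 8 h to 10.95 in LA replicate 2 at 8 h. Eln, elastin, lay at 5.17 and 3.84 in LA replicate 1, 3.84 and 3.97 in replicate 2, 3.99 and 3.84 in replicate 3, 3.90 and 3.84 in replicate 4, and 4.65 and 3.98 with CLA. It was at the floor on 4 arrays and reached its highest levels on the arrays of replicate 1 at 8 h, LA and CLA.

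**Figure D3:**
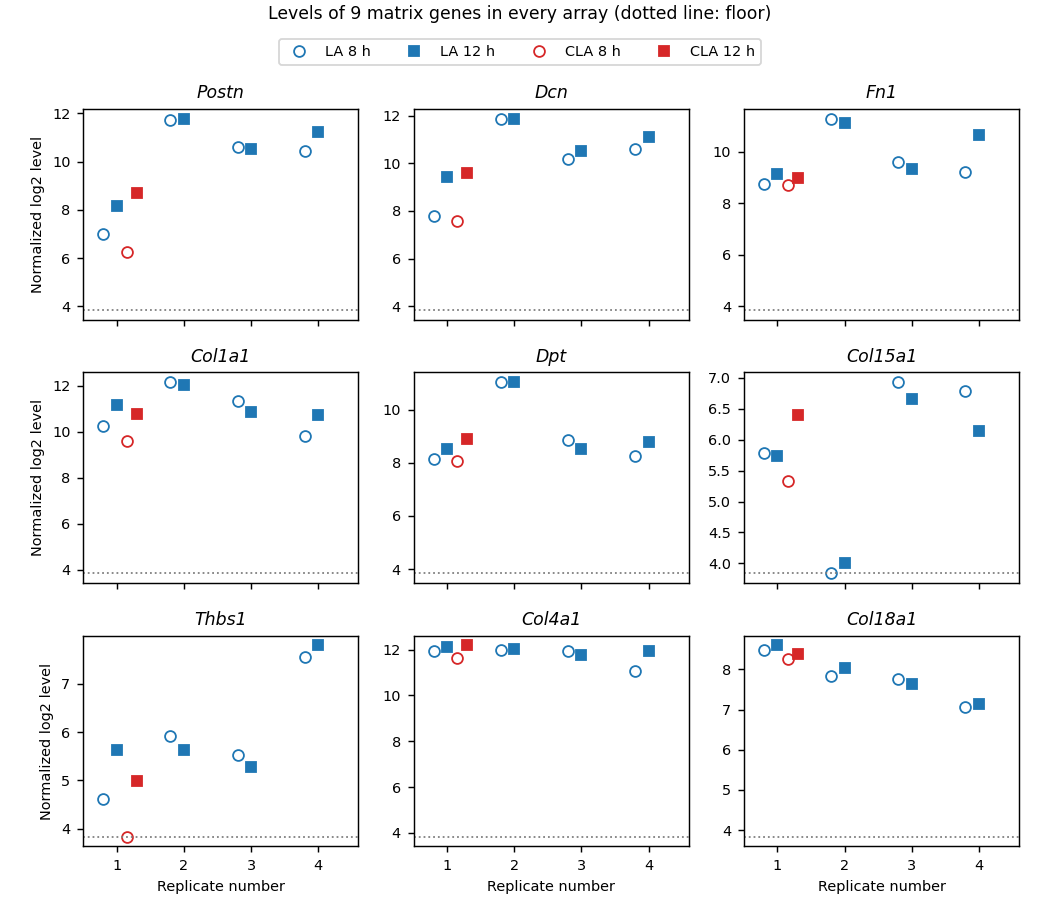
Normalised log2 level (vertical axis) of 9 matrix genes by replicate number (horizontal axis), with circles for 8 h, squares for 12 h, blue for LA, red for CLA and a dotted line at the floor. The CLA points lie beside LA replicate 1 for Postn, Dcn and Fn1, Dpt is highest in replicate 2, Thbs1 in replicate 4, and Col15a1 is at or near the floor in replicate 2.

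All 5 tested genes of matrix turnover differed between the LA replicate numbers by the F test, against 50.1% of all genes. In replicate 1, 2 of them were lower, against 23.5% of all genes. Timp1, an inhibitor of metalloproteinases, lay at 6.45 and 6.89 in LA replicate 1, 8.61 and 8.00 in replicate 2, 6.87 and 6.70 in replicate 3, 7.38 and 8.42 in replicate 4, and 6.62 and 6.44 with CLA. Its LA difference in replicate 1 was -0.99 (SE 0.32), adjusted p 0.0376, though the arrays of replicates 1 and 3 overlapped. Timp2, which inhibits metalloproteinases and helps to activate MMP2, had LA replicate 2 above the rest at 11.23 and 11.12. Timp3 was at the floor on 9 of 10 arrays. Mmp2, gelatinase A, lay at 9.98 and 10.72 with CLA and 10.22 and 10.82, 11.96 and 11.89, 11.45 and 10.98, and 9.71 and 10.93 in LA replicates 1 to 4. Replicate 2 was above all other LA arrays, and the LA array of replicate 4 at 8 h was the lowest. Mmp14, the membrane protease that activates MMP2, lay at 8.35 and 8.82 in LA replicate 1, 9.76 and 9.47 in replicate 2, 8.27 and 8.40 in replicate 3, 7.45 and 8.34 in replicate 4, and 8.07 and 8.60 with CLA. As for Mmp2, replicate 2 was on top and the LA array of replicate 4 at 8 h lowest, and neither was called in replicate 1, with differences of -0.63 (SE 0.32) and -0.03 (SE 0.23). Adamts1, a protease of the large proteoglycans, lay at 7.89 and 9.38 with CLA and 8.46 and 9.01, 10.75 and 10.76, 9.59 and 9.51, and 9.08 and 10.62 in LA replicates 1 to 4. Replicate 1 was below and replicate 2 above all other LA arrays, and the difference of replicate 1 was -1.32 (SE 0.32), adjusted p 0.0148. CLA minus LA ran from -1.09 for Adamts1 to -0.27 for Mmp14, with none called.

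At 8 h, 33 of the 38 matrix genes lay below the LA mean with CLA and 5 above. Postn stood farthest at -3.69 (SE 1.63), 12.9-fold, then Lox at -3.03 (SE 1.47). By p, Postn came first and Col1a2 second below LA, the latter at -1.25 (SE 0.56), and above LA Col5a3 at 0.66 (SE 0.69) and Eln at 0.43 (SE 0.48). In limma 0 of 38 were called, as were 0% of all genes, with Postn alone among the 38 and 488 of all genes at an unadjusted p under 0.05. The median was -0.67 against 0.16 over all genes. For the matrix genes it was -0.28 with the replicate block. With the block 2 of the 38 and 647 of all genes had an unadjusted p under 0.05, Postn at -1.09 (SE 0.41) and Thbs1 at -1.20 (SE 0.47), with adjusted p 0.808 and 0.820 in limma. Without the LA array of replicate 1 at 8 h, Eln was called at 0.74, adjusted p 0.0354 in limma, together with 193 of all genes. That array had the highest Eln level of the 10, 5.17, above the 4.65 of CLA at 8 h, and with the replicate block the Eln difference was -0.03.

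At 12 h, 29 genes lay below LA and 9 above. The lowest p below LA belonged to Col12a1 at -1.47 (SE 1.07) and Timp1 at -1.06 (SE 0.86), and above it to Col18a1 at 0.54 (SE 0.62) and Lamc1 at 0.34 (SE 0.43). None of the 38 and 0% of all genes were called, with 0 and 186 at an unadjusted p under 0.05. The median was -0.24 against 0.09 over all genes. After median centring these medians were 0.01 and 0.16, and on the deposited scaling -0.41 and -0.26. With the block the median of the matrix genes was 0.12. The interaction, which tests whether the CLA difference at 12 h differs from that at 8 h, called 0 of 38 and 0% of all genes, with 0 and 116 at an unadjusted p under 0.05. Its median was 0.39 against -0.01 over all genes. The smallest p belonged to Col1a2 at 0.91 (SE 0.80) and Col6a2 at 0.51 (SE 0.54) on the upper side, and to Timp1 at -0.35 (SE 1.22) and Eln at -0.32 (SE 0.68) on the lower. With the replicate block it belonged to Postn at 1.97 (SE 0.51) and Col15a1 at 1.27 (SE 0.43), both on the upper side. Each time still has 1 CLA array.

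Against the LA array of the same number and time, CLA was higher for 5 and lower for 30 matrix genes at 8 h, with a median of -0.19. At 12 h it was higher for 22 and lower for 15, with a median of 0.05. Of all genes tested, 49.1% and 47.7% were higher. The count at 8 h depended on the scaling, as did the share of all genes. It was 6 of 39 after median centring (43.4% of all genes) and 26 of 39 on the deposited scaling (73.0%). At 8 h the widest gaps were Lama4 at 0.82 and Thbs1 at -0.78, and at 12 h Col15a1 at 0.68 and Thbs1 at -0.64. Each of these is 1 array against 1 array, with no test.

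From 8 h to 12 h in LA, 34 of the 38 matrix genes lay higher at 12 h, but none was called. The median was 0.24, against -0.01 over all genes. Lamb1 lay at 0.35 (SE 0.27) and Timp2 at 0.52 (SE 0.50), and Eln at -0.35 (SE 0.30) and Col15a1 at -0.20 (SE 0.77), each with an adjusted p of 1. In limma 0 of 38 and 0% of all genes passed, with 0 and 26 at an unadjusted p under 0.05. With the replicate block the differences stayed and 1 matrix gene had an unadjusted p under 0.05.

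The pairs of equal number moved unlike each other. In replicate 1, 33 of the 38 genes were higher at 12 h, with a median change of 0.36, and in replicate 4, 34 were, with 0.61. In replicate 2, 14 were higher, with a median of -0.03, and in replicate 3, 4 were, with -0.15. The CLA arrays, which also carry number 1, had 34 genes higher at 12 h and a median of 0.59. Over all genes tested, 47.8%, 47.1%, 42.8% and 46.2% were higher in these 4 pairs and 43.8% with CLA. These counts moved with the scaling, as did the shares of all genes. In pair 2, 8 of 39 were higher after median centring (48.0% of all genes) and 26 of 39 on the deposited scaling (71.8%). For pair 3 the counts were 9 (58.3%) and 1 (17.7%). Col5a2, Dcn and Lamb1 were higher at 12 h in all 4 pairs, 3 of 38 against 5.94% of all genes, and none was lower in all 4, against 6.43%. For Dcn the changes were 1.63, 0.00, 0.31 and 0.50 in order of number. The LA array of replicate 4 at 12 h is the one with the beta-actin ratio of 5.67, and its part in the change was not tested.

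**Figure D4:**
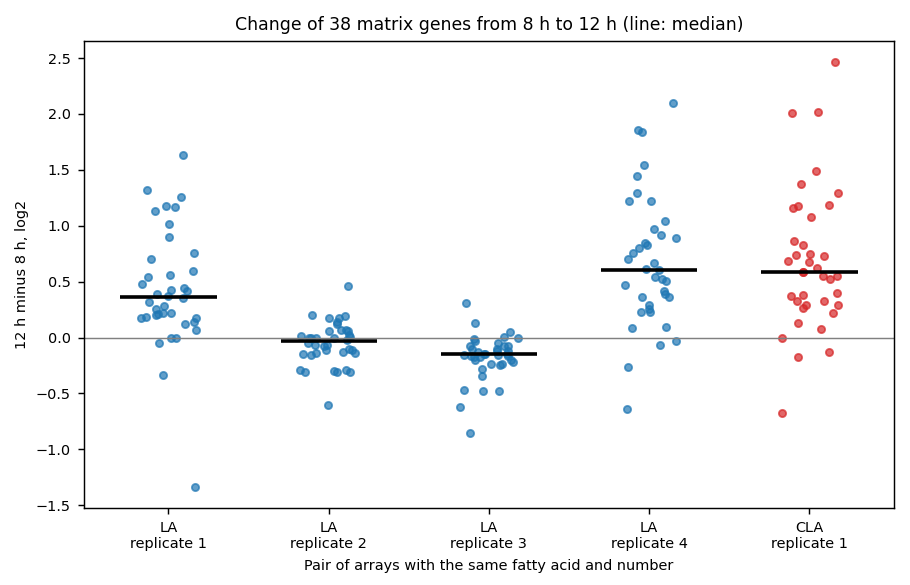
Log2 change from 8 h to 12 h (vertical axis) of the 38 tested matrix genes in each pair of arrays with the same fatty acid and number (horizontal axis), with a point per gene, spread sideways for visibility, and a line at the median. The medians are 0.36, -0.03, -0.15 and 0.61 for LA replicates 1 to 4 and 0.59 for CLA.

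The authors' deposited table gives 1 ratio and p-value per probe set for both times together, and its direction was not stated. Its log ratios correlated at 0.914 across tested genes with CLA minus LA, which comes from the same arrays, so a ratio under 1 was read as lower with CLA. In the authors' deposited table, 14 of the 89 matrix probe sets, 15.7%, had a p under 0.05, all with a ratio under 1. Of all probe sets with 1 gene, 11% had such a p with a ratio under 1 and 4.89% with a ratio above 1. By the probe sets used here, the authors' deposited table held 8 of the 38 genes at that p. They were Postn with a ratio of 0.148 (p = 0.00227), Lum with 0.0998 (p = 0.00684), Lox with 0.204 (p = 0.0183), Dcn with 0.288 (p = 0.0246), and Col5a2, Col1a2, Nid2 and Thbs2 with 0.496, 0.567, 0.239 and 0.583 in the authors' deposited table. Those p-values are not adjusted for the number of probe sets. Of these 8 genes, all but Col1a2 were lower in LA replicate 1 at an adjusted p under 0.05 in limma, against 23.5% of all genes. Both readings use the same LA arrays. Neither the share of all tested genes with such an authors' p, nor the part of those lower in replicate 1, was counted.

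Genes around the matrix were described by lists. In LA replicate 1, 29.7% of all genes tested were called higher and 23.5% lower, the shares to set beside the counts below. Collagen synthesis genes, which modify and fold the chains, had 16 of 20 tested, and in LA replicate 1 there were 3 called higher and 4 lower, with Plod1, a lysyl hydroxylase, at 1.55 and Mia3, which loads collagen for export, at -1.24. Other matrix genes had 28 of 38 tested, 2 higher and 8 lower, and the small proteoglycans Aspn and Ogn both at -3.26. Matrix proteases and their inhibitors had 16 of 21 tested, 2 higher and 8 lower, with Adamts9 at -1.54 and Mmp11 at 1.87. Matrix receptors had 20 of 24 tested, 6 higher and 7 lower, with the integrin chains Itga5 and Itga3, which had the smallest p, at 1.68 and 1.66, and with a lowest difference of -2.18 in the list. TGF-beta signalling genes had 17 of 18 tested, 4 higher and 4 lower, with the receptor Tgfbr1 at -2.38 and the ligand Tgfb1 at 1.67.

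The medians of the 5 lists in that order were 0.27, -0.33, -0.67, 0.13 and 0.04, against 0.18 over all genes. The balance of calls moved with the scaling, and on the deposited one 5, 19, 13, 9 and 10 of 16, 30, 16, 19 and 18 tested were lower and 1, 0, 1, 2 and 2 higher, beside 4367 lower and 365 higher of all genes. After median centring 2, 8, 6, 6 and 3 were lower and 8, 2, 1, 8 and 5 higher, beside 2238 and 3820, while the 10 named genes kept their direction under all 3 scalings. For CLA against LA, at either time or over both, and for LA over time, 0 genes of the lists were called in limma. Over both times 1, 5, 3, 3 and 3 of the lists had an unadjusted p under 0.05.

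Other probe sets of the same genes did not always point the same way. Of 25 genes with several tested probe sets, all had the same sign in 17 for CLA against LA, 16 for LA over time and 14 for LA replicate 1. The 3 tested probe sets of Lox lay at -2.84, -2.83 and -1.43 in replicate 1 and the 2 of Fn1 at -1.25 and -1.50. For Col1a1 the second probe set lay at 0.64 against -0.45 for the first. Among genes called lower in replicate 1, another probe set lay above 0 for Col12a1 (0.30), Lama4 (0.14), Lamb1 (0.47), Col6a2 (0.19) and Dcn (0.08). With the mean of probe sets, Col12a1, Lama4, Lamb1 and Col6a2 lay at -0.40, -0.53, -0.21 and -0.13 and were no longer called.

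The RefSeq promoter table held 27 of the 42 genes. Each window ran from 250 bases before to 50 after the start, and motifs were counted on both strands. GGGCGG was present in 19 of the 27, 70.4%, against 35.9% of 27025 promoters, and CCAAT in 12, 44.4%, against 37.9%. TATAAA was present in 5, 18.5% against 14.2%, the AP-1 type site TGANTCA in 1, 3.70% against 7.93%, and the TEAD type site GGAATG in 4, 14.8% against 14.6%. Such a match describes letters in the window and is not a measured binding site.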

How the data were processed

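The submitters gave probe set intensities of 10 Affymetrix mouse arrays of biotin-labelled total RNA, per the labels. The deposited intensity values are linear, 22.5% of them are at or below 0, and their background correction and scaling between arrays are not given in the sources used here. The authors also deposited a table of a ratio, its log10 value and a p-value per probe set, with 8 h and 12 h pooled and with the error model and direction not given.

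Of 45101 probe sets, 34945 name 1 gene by GEO's platform annotation, with symbols updated through gene identifiers. Intensities were quantile-normalised, raised to a floor of 14.3 and taken as log2. The floor is the absolute value of the 2nd percentile of the deposited values, which lies below 0. The brightest probe set stood for its gene, and the dimmest 40% of 18193 genes were left out, leaving 10916. Differences were tested two-sided in R 4.3.3 by limma 3.58.1, through lmFit and a trended eBayes, with Benjamini-Hochberg adjustment over 10916 genes. The fit was tested on simulated data. The number of arrays limits the precision.

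The 42 genes and the lists were chosen with earlier results of these data known. Values in every array are given for a preset set of members in each role, and each comparison names the 2 members of smallest p in each direction. Lists name at most 2 genes. Further members, such as Fbln2, were named after their values were seen.

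Same-numbered LA arrays deviated together (r 0.855, 0.779, 0.503 and 0.553 for numbers 1 to 4, against at most 0.283 with other numbers), so the number was a block in an alternative fit. Other alternatives changed the scaling, floor, filter, probe set rule and arrays used. The repeats of the non-overlap and pair counts were added after seeing the data.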

Additional observations from a re-analysis of the deposited data

Results flagged for a closer look

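In 10 of 76 groups of 4 LA arrays at 1 time, 1 array stood apart from the other 3 by Dixon's ratio, the gap to the nearest array over the whole range against its 95% critical value. Chance alone flags about 1 in 20 groups. In 3 of the 10 (Tnc at both times and Eln at 12 h) the other 3 arrays were tied at the floor, so the ratio is 1 whatever the size of the gap and says nothing about it. The LA array of replicate 4 at 8 h was low for Col4a1 (ratio 0.941, level 11.08) and Col4a2 (ratio 0.870, level 10.57). Replicate 4 was high for Thbs1 at 12 h (ratio 0.859, level 7.80) and for Tnc at 8 h (ratio 1, level 4.88) and 12 h (ratio 1, level 6.17), with the other 3 Tnc arrays at the floor each time. Replicate 2 at 12 h was high for Dpt (ratio 0.886, level 11.03), Mmp2 (ratio 0.852, level 11.89) and Eln (ratio 1, level 3.97), the last against 3 arrays at the floor. Replicate 1 at 8 h was high for Eln (ratio 0.884, level 5.17) and low for Lama4 (ratio 0.917, level 7.27). The cause of these values was not tested.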

How the results depend on the processing

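With 1 CLA array at each time, all CLA results rest on single arrays. Of the counts and medians over all alternatives, 271 kept within the margin and 21 moved. Of the values of single genes, 876 kept direction and call, 123 lost the call, 1 gained it and 15 changed sign. The F test over LA replicate numbers called 16 members with the floor at the 1st percentile, 12 with a floor of 32 and 7 without the filter on dim genes, and 0 to 34 when each array was left out in turn, against 25. The contrast of LA replicate 1 called 11 members without the filter, 1 with the replicate number as 1 unit, and 5 to 28 leaving out arrays, against 19. The 1 called with the number as 1 unit, Eln, was not among the 19. CLA against LA at 8 h called 0 to 1 member when arrays were left out, and by the authors' deposited p under 0.05, 8 members differed over both times. After median centring, LA replicate 1 lay above all other LA arrays for 10 members (34.5% of all genes) and replicate 2 for 12 (5.34%). On the deposited scaling replicate 1 did so for 0 (4.06%). Members higher at 12 h in pair 2 numbered 8 after median centring (48.0%) and 26 on the deposited scaling (71.8%). In pair 3 they numbered 9 (58.3%) and 1 (17.7%). CLA exceeded LA replicate 1 at 8 h for 26 on the deposited scaling (73.0%). With the replicate block, CLA minus LA turned for Col5a3 (-0.15), Col18a1 (-0.21) and Lum (0.12) over both times, for Col5a3 (-0.076) and Eln (-0.028) at 8 h and for Col18a1 (-0.18) at 12 h. The block left every other call of the 38 members the same, at 0. With a random replicate block, Col5a3 (-0.035) and Col18a1 (-0.096) turned too. Eln at 8 h became -0.080 on the deposited scaling and -0.044 with a floor of 32, where its interaction became 0.044, and Col6a2 in LA replicate 1 became 0.20 after median centring. Leaving out arrays, Col15a1 in LA over time ran from -0.86 to 0.34. Over all genes, CLA against LA called 5 genes (1st-percentile floor), 28 (floor of 32), 51 (no filter) and 10 (mean of probe sets) over both times, 169, 264, 548 and 38 at 8 h and 56, 87, 361 and 7 at 12 h, with 419 at 8 h and 198 at 12 h for every probe set and 67 for the 12 h arrays alone. The interaction called 61, 269, 739, 323 and 1 for the 1st-percentile floor, floor of 32, no filter, every probe set and mean. LA over time called 1 gene with a floor of 32 and 1 without the filter, the F test 2063 without the filter, and replicate 1 960 with the number as 1 unit, against 0, 5472 and 5800. Leaving out arrays, all-gene calls ran from 0 to 23 over both times, 0 to 193 at 8 h, 0 to 74 at 12 h, 0 to 51 for the interaction, 406 to 6537 for the F test and 2201 to 6650 for replicate 1. The cause of these shifts was not tested.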
